A study of Caenorhabditis elegans with 21 samples.

Results

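The effect of losing the p38 kinase PMK-1 was measured in *C. elegans* that also carried a mutation of *daf-16*. The comparison sets 4 libraries of double mutants, 2 of *daf-16(mgDf50);pmk-1(km25)* and 2 of *daf-16(m26);pmk-1(km25)*, against 4 libraries of *daf-16* single mutants, 2 of *daf-16(mgDf50)* and 2 of *daf-16(m26)*. These 8 of the 21 libraries of the series were chosen by genotype from the sample labels. Of the rest, 3 libraries of *pmk-1(km25)* and 3 of wild type were used for the same comparison with *daf-16* intact. All libraries came from mRNA of whole animals, kept as eggs for 24 h in buffer without food and then fed OP50 bacteria for 48 h at 20 °C. The labels call this stage late L4, while the study's methods describe young adults. *km25* is a null allele of *pmk-1*, *mgDf50* is a deletion in *daf-16* and *m26* is a splice site mutation of *daf-16*. Below, without *daf-16* stands for either mutation, and how much DAF-16 function each leaves was not measured. Each allele combination was 1 strain, and nothing in the sources says how far the replicates were grown apart, so p-values measure the spread between these libraries only. In whole animals, fewer cells of a tissue and less RNA per cell cannot be told apart.

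PMK-1 is the last kinase of a conserved cascade in which the adaptor TIR-1 acts through NSY-1 and SEK-1. In the intestine and epidermis of the worm it keeps antimicrobial and infection response genes expressed, partly through the transcription factor ATF-7, and the phosphatase VHP-1 switches it off. DAF-16 is the worm FOXO transcription factor, held out of the nucleus by insulin signalling, and many stress and immune genes respond to it as well. The comparison in *daf-16* mutants asks which genes depend on PMK-1 when *daf-16* is mutated.

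The mutated genes were examined first. Expression is given in the authors' TPM, a unit that scales each gene by its length and each library to the same total. The *pmk-1* transcript was at 12.6 and 12.7 TPM in *daf-16(mgDf50);pmk-1(km25)* and at 11.4 and 13.9 TPM in *daf-16(m26);pmk-1(km25)*, against 15.4 and 16.5 TPM in *daf-16(mgDf50)* and 15.8 and 13.7 TPM in *daf-16(m26)*. The groups overlapped slightly and the transcript of the null allele was still present, so its level does not check the label. *daf-16* was at 6.12 and 7.35 TPM in *daf-16(mgDf50);pmk-1(km25)* and at 59 and 61.8 TPM in *daf-16(m26);pmk-1(km25)*, against 6.95 and 6.65 TPM in *daf-16(mgDf50)* and 57.2 and 59.5 TPM in *daf-16(m26)*. The transcript was low in both *mgDf50* strains and high in both *m26* strains, in double and single mutants alike.

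Loss of *pmk-1* without *daf-16* mainly lowered genes. Changes are given as log2 fold changes of double over single mutants on log2(TPM + 1), which understates changes of weakly expressed genes, with the standard error (SE) from a limma fit that kept the *daf-16* allele as a block. A gene was called at a Benjamini-Hochberg adjusted p below 0.1. Of the 12843 genes tested, 82 were called (0.638%), 74 of them lower (0.576%) and 8 higher (0.0623%) in the double mutants. The 74 falls had a median log2 fold change of -1.60 and the 8 rises one of 1.1, while the median of all tested genes was 0.01. The fall was at least 1 on the log2 scale for 60 genes and at least 2 for 25 genes.

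For 79 of the 82 called genes the 4 double mutant libraries did not overlap with the 4 single mutant libraries, 71 lying below and 8 above. Among all tested genes, 2.16% lay entirely below and 0.553% entirely above. The same 8 libraries chose the called genes, so their separation follows largely from the call and adds no support. The other 3 called genes, *F22E5.1*, *F46F2.3* and *Y80D3A.9*, picked here for this exception, were separated within each allele but not across the alleles. Double and single mutant libraries with the same replicate number deviated from their group means together, and a fit with these 4 pairs as a replicate block called 466 genes (3.63%), 367 lower (2.86%) and 99 higher (0.771%). All 82 genes were among them. Leaving out single libraries gave 47 to 259 calls. Of the 82 genes, 40 were called whichever library was left out. Among *daf-16(m26);pmk-1(km25)* libraries, omitting number 1 left 49 calls and omitting number 2 left 47, with 34 and 38 of the 82 lost. Among *daf-16(mgDf50);pmk-1(km25)* libraries, omitting number 1 lost 22 of the 82 and omitting number 2 lost 31, with 51 calls left in the second case. In *daf-16(m26)* the losses were 36 and 23 for numbers 1 and 2, with 47 and 61 calls left. In *daf-16(mgDf50)*, omitting number 1 lost 20 of the 82, and omitting number 2 lost none and raised the count to 259.

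The strongest falls were in genes for secreted proteins of the infection response. *F35E12.5* (*irg-5*), which encodes a CUB-like domain protein, was at 1.47 and 1.17 TPM in *daf-16(mgDf50);pmk-1(km25)* and at 2.55 and 1.68 TPM in *daf-16(m26);pmk-1(km25)*, against 190 and 71.3 TPM in *daf-16(mgDf50)* and 106 and 54.1 TPM in *daf-16(m26)*. The groups were far apart, with a log2 fold change of -5.15 (SE 0.36, limma, adjusted p = 0.000676). *F08G5.6* (*irg-4*) was at 2.04 and 1 TPM in *daf-16(mgDf50);pmk-1(km25)* and at 2.53 and 0.693 TPM in *daf-16(m26);pmk-1(km25)*, against 150 and 72.1 TPM in *daf-16(mgDf50)* and 50.3 and 23.4 TPM in *daf-16(m26)*. Its log2 fold change was -4.63 (SE 0.44, limma, adjusted p = 0.00459), and replicate 1 exceeded replicate 2 in each of the 4 genotypes. *C17H12.8*, another CUB-like gene, was at 0.125 to 0.341 TPM in the 4 double mutant libraries, against 68.6 and 23.6 TPM in *daf-16(mgDf50)* and 44 and 21.3 TPM in *daf-16(m26)*. That is a log2 fold change of -4.90 (SE 0.33, limma, adjusted p = 0.000597).

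*F08G5.6* and *C17H12.8* both lie on chromosome IV and are alike where the study's own forward PCR primers bind. These primers, shown because they mark how alike the genes are there, have 22 bases each and differ at 2 of them, written in capitals, 5′ to 3′.
F08G5.6: gtCccactGtcacaagctcaac
C17H12.8: gtTccactTtcacaagctcaac
How alike the rest of the 2 genes is was not examined. How any reads matching both were counted is not given in the sources used here, so the split of such reads is uncertain. The small RNA gene *21ur-13425*, listed at 0 in all 4 double mutant libraries and at 25.4 to 96.2 TPM in the single mutants, lies inside *C17H12.8* in the gene annotation. It is counted among the 74 falls, but its reads and those of *C17H12.8* may be the same.

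*T24B8.5* (*sysm-1*), an often used reporter of PMK-1 activity that encodes a ShK-like peptide, had the smallest adjusted p. It was at 1.19 and 1.41 TPM in *daf-16(mgDf50);pmk-1(km25)* and at 2.29 and 1.31 TPM in *daf-16(m26);pmk-1(km25)*, against 20.5 and 24.5 TPM in *daf-16(mgDf50)* and 28.7 and 28 TPM in *daf-16(m26)*. Its log2 fold change was -3.38 (SE 0.15, limma, adjusted p = 9.5e-05). *K04F1.9*, an uncharacterised gene, was at 1.77 to 2.81 TPM in the double mutants, against 15.5 to 23 TPM in the single mutants, and fell by 2.72 on the log2 scale (SE 0.15, limma, adjusted p = 0.000246). Both genes were thus low in every double mutant library, and both were called without any one library.

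**Figure D1:**
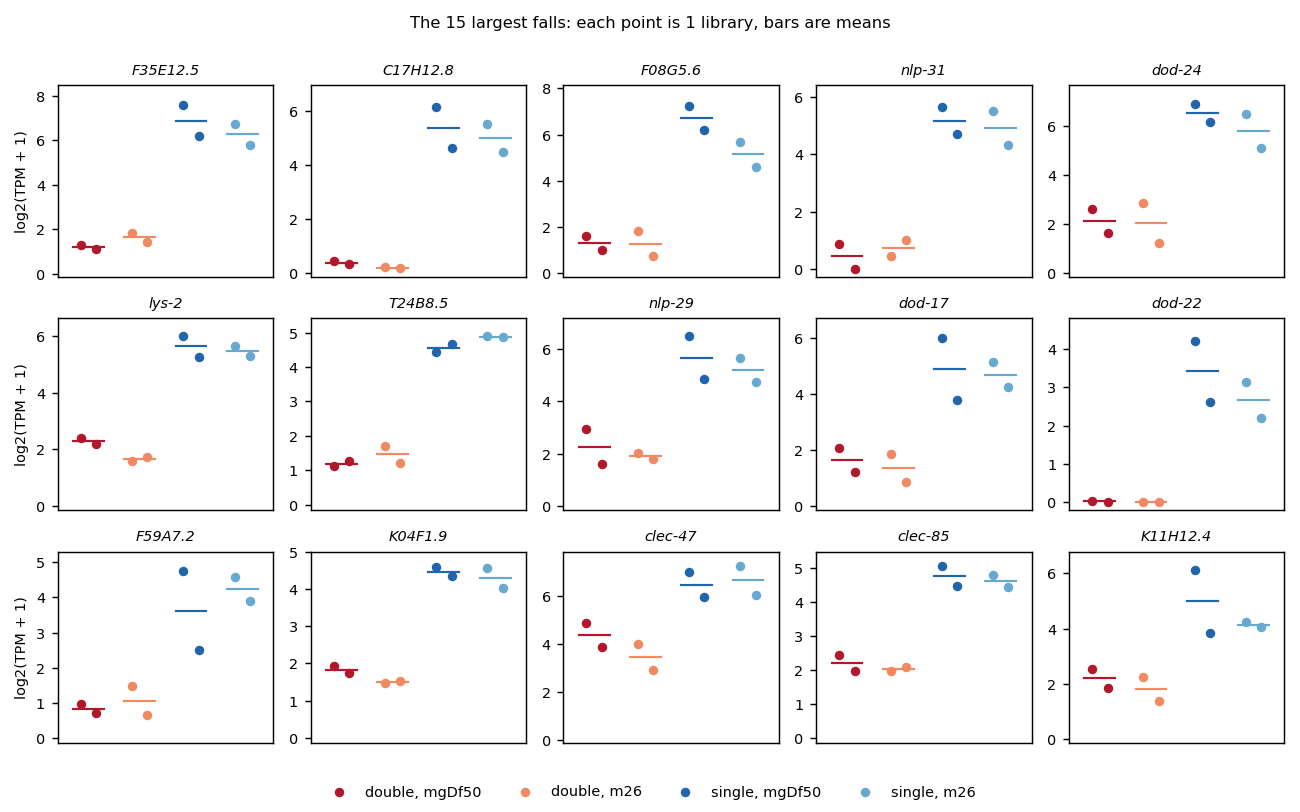
Expression as log2(TPM + 1) on the vertical axes for the 15 largest falls, with the double mutants (red for *mgDf50*, orange for *m26*) left of the single mutants (dark blue for *mgDf50*, light blue for *m26*). Points are libraries and bars are means of 2. In every panel the 4 double mutant libraries lie below the 4 single mutant libraries, from a log2 fold change of -5.15 for *F35E12.5* to -2.55 for *K11H12.4*.

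Of the 15 largest falls, *dod-17*, *F59A7.2*, *clec-47* and *K11H12.4* lost their call when some libraries were left out. *dod-17*, a CUB-like gene, was at 3.16, 1.33, 2.65 and 0.829 TPM in the double mutants, against 63.3 and 12.9 TPM in *daf-16(mgDf50)* and 34.1 and 18 TPM in *daf-16(m26)* (log2 fold change -3.29, limma, adjusted p = 0.031). *K11H12.4* had the weakest support (log2 fold change -2.55, limma, adjusted p = 0.0827), with 1.58 to 4.85 TPM in the double mutants, against 69.1 TPM in *daf-16(mgDf50)* replicate 1 and 13.2 to 17.7 TPM in the other single mutant libraries. Calls were kept in 4 of the 8 fits that left out a library for *dod-17*, in 3 for *F59A7.2* and in 2 each for *clec-47* and *K11H12.4*. Across these 4 genes the libraries whose absence ended a call included both of each double mutant, both of *daf-16(m26)* and number 1 of *daf-16(mgDf50)*. All 4 genes were still called with the replicate block.

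CUB-like genes, a worm family of secreted proteins induced by pathogens, held many of the falls. The genes were listed with earlier results of these data known, so the counts are not independent evidence about the family. The same holds for the other lists below. Of the 27 listed, 24 were tested, 14 were called lower, beside 0.576% of all tested genes, and 10 did not pass the test. None was higher. All 24 had a negative log2 fold change, as did 5810 of the 12843 tested genes, and the median was -1.87, beside 0.01 for all tested genes. The double mutant libraries lay entirely below the single mutant libraries for 20 of them, beside 2.16% of all tested genes. *dod-24* was at 5.11 and 2.12 TPM in *daf-16(mgDf50);pmk-1(km25)* and at 6.21 and 1.36 TPM in *daf-16(m26);pmk-1(km25)*, against 117 and 70.5 TPM in *daf-16(mgDf50)* and 87.9 and 33.2 TPM in *daf-16(m26)* (log2 fold change -4.07, SE 0.45, limma, adjusted p = 0.00827). *dod-22* was listed at 0 in 3 double mutant libraries and at 0.0267 TPM in the fourth, against 17.7 and 5.14 TPM in *daf-16(mgDf50)* and 7.76 and 3.6 TPM in *daf-16(m26)*. *F55G11.8* was at 1.21 to 2.76 TPM in the double mutants and 10.1 to 25.2 TPM in the single mutants. The 10 members that were not called differed in size. *F35E12.10* changed little, at 58.8 to 69.5 TPM in the double mutants and 66 to 101 TPM in the single mutants (log2 fold change -0.29). *C32H11.4* (limma, adjusted p = 0.143) changed by -1.98 to -1.40 over the alternative fits, against -1.81 to -1.37 for the called *C29F3.7*. With the replicate block 20 of the 24 were called lower, beside 2.86% of all tested genes.

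Several of the called genes were neighbours. Taking the tested genes in chromosome order, 37 of the 80 called genes that could be placed had another called gene within 5 genes, and 15 lay in 3 clusters. The longest, on chromosome IV, held 8 called genes, *K08D8.4*, *K08D8.5*, *dod-24*, *F55G11.8*, *dod-22*, *F55G11.2*, *F55G11.4* and *dod-17*, all from the CUB-like list and all lower. On chromosome II the C-type lectins *clec-62*, *clec-63*, *clec-65* and *clec-66* were lower, and on chromosome V the epidermal peptides *nlp-31*, *nlp-30* and *nlp-29*. Chromosomes IV and V carried 36.6% and 39.0% of the called genes, beside 18.3% and 17.5% of the tested genes. Members of a cluster can share ancestry and reads, which was not examined, so neighbouring genes cannot be taken as independent observations. No matching share over all tested genes was computed for the neighbour and cluster counts, so they are descriptions only.

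**Figure D2:**
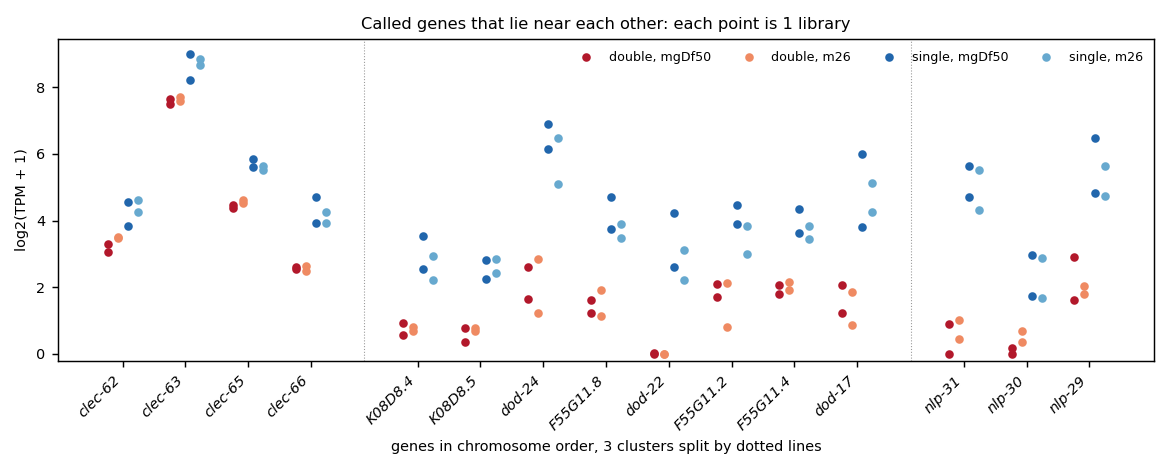
Expression as log2(TPM + 1) of the 15 called genes that lie in clusters, in chromosome order from left to right, with chromosome II, IV and V clusters divided by dotted lines. Points are libraries, double mutants left of single mutants within each gene. The double mutants (red and orange) lie below the single mutants (blue) for all 15 genes, whether the gene is abundant (*clec-63*) or nearly silent without *pmk-1* (*dod-22*).

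Some antimicrobial peptides of the epidermis, the *nlp* and *cnc* genes that respond to fungal infection and wounding, were lower. Of 22 listed genes, 20 were in the table, 13 were tested and 4 were called, all lower, beside 0.576% of all tested genes. The median log2 fold change of the 13 was -0.97, and 9 did not pass the test. *nlp-31* was at 0.844 TPM and listed at 0 in *daf-16(mgDf50);pmk-1(km25)* and was at 0.376 and 1 TPM in *daf-16(m26);pmk-1(km25)*, against 48.8 and 24.8 TPM in *daf-16(mgDf50)* and 44.3 and 18.9 TPM in *daf-16(m26)* (log2 fold change -4.45, SE 0.35, limma, adjusted p = 0.00124). *nlp-29* was at 6.56 and 2.05 TPM in *daf-16(mgDf50);pmk-1(km25)* and at 3.09 and 2.51 TPM in *daf-16(m26);pmk-1(km25)*, against 88.2 and 27.3 TPM in *daf-16(mgDf50)* and 49 and 25.6 TPM in *daf-16(m26)* (log2 fold change -3.33, SE 0.41, limma, adjusted p = 0.0125). The neighbouring *nlp-30* and the caenacin *cnc-4* were called at much lower levels, with *cnc-4* listed at 0 in 3 double mutant libraries and at 1.42 to 3.67 TPM in the single mutants. Not every epidermal peptide moved. *nlp-27* was at 192 to 343 TPM in the double mutants and 255 to 313 TPM in the single mutants, and *nlp-26* was higher in each double mutant library than in the single mutant of the same allele and number (238, 84.5, 155 and 127 TPM in the double mutants, against 146, 64, 91.2 and 90.6 TPM in the single mutants). Its log2 fold change was 0.58. The replicate block called 10 of the 13 lower and *nlp-26* higher, beside 2.86% lower and 0.771% higher over all tested genes.

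Among lysozymes, enzymes that cleave bacterial cell walls, *lys-1* and *lys-2* fell, beside 0.576% of all tested genes, and the other 7 tested were not called. *lys-2* was at 4.25 and 3.6 TPM in *daf-16(mgDf50);pmk-1(km25)* and at 2.01 and 2.30 TPM in *daf-16(m26);pmk-1(km25)*, against 64.2 and 38 TPM in *daf-16(mgDf50)* and 49.1 and 38.9 TPM in *daf-16(m26)* (log2 fold change -3.59, SE 0.19, limma, adjusted p = 0.000246). *lys-1* was far more abundant and fell less, with 202, 145, 155 and 145 TPM in the double mutants against 407, 313, 322 and 286 TPM in the single mutants (log2 fold change -1.04, limma, adjusted p = 0.0125). *lys-7* overlapped between the groups, at 7.13 to 14.3 TPM in the double mutants and 8.32 to 17.1 TPM in the single mutants. *lys-4* pointed the other way without passing the test, at 214 to 333 TPM in the double mutants and 149 to 244 TPM in the single mutants (log2 fold change 0.60).

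C-type lectins, secreted proteins with a carbohydrate recognition fold, split. Of 79 *clec* genes tested, 10 were lower and 2 were higher, beside 0.576% and 0.0623% of all tested genes. The median of the family was 0.04. *clec-85* was at 4.40, 2.93, 2.95 and 3.22 TPM in the double mutants, against 32.2, 21, 26.6 and 20.7 TPM in the single mutants (log2 fold change -2.57, SE 0.18, limma, adjusted p = 0.000597). *clec-47* was at 28.2, 13.7, 14.7 and 6.57 TPM in the double mutants, against 124, 61.2, 150 and 64.3 TPM in the single mutants, which is a comparable fold but with a wider spread. *clec-67* was below 0.05 TPM in all 4 double mutant libraries and between 1.88 and 9.61 TPM in the single mutants. *clec-52* and *clec-172* were the lectins that rose. F-box genes of the *fbxa* family contributed 3 falls among 74 tested, beside 0.576% of all tested genes. These were *fbxa-105*, *fbxa-14* and *fbxa-190*, each at 0.27 to 1.99 TPM in the double mutants and 1.35 to 5.38 TPM in the single mutants.

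Proteases and cystatins, enzymes of the gut lumen and lysosome and their inhibitors, had a few members that changed. Of 25 tested, the aspartyl proteases *asp-6* and *asp-12* fell and the cathepsin B-like *cpr-1* rose, beside 0.576% lower and 0.0623% higher over all tested genes. The list had a median log2 fold change of -0.15. *asp-6* was at 483, 415, 487 and 426 TPM in the double mutants, against 931, 732, 879 and 706 TPM in the single mutants (log2 fold change -0.83, limma, adjusted p = 0.0189). *asp-3* was also lower in all 4 double mutant libraries (616 to 787 TPM, against 827 to 1183 TPM in the single mutants) but was not called (limma, adjusted p = 0.37). Of the 12 tested *asp* genes, 10 had a negative fold change and 2 were called lower, and the replicate block called 8 lower. With the block the whole protease list had 11 genes lower and 1 higher, beside 2.86% and 0.771% of all tested genes.

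Genes for other functions were among the falls, and the examples that follow were picked with their values in view. One of the abundant ones was *ZK6.11* (*irg-8*), an infection response gene, at 113, 75.9, 88.8 and 61.5 TPM in the double mutants, against 480, 211, 371 and 230 TPM in the single mutants (log2 fold change -1.87, limma, adjusted p = 0.0353). The folate transporter gene *folt-2* was at 324, 314, 170 and 230 TPM in the double mutants, against 611, 553, 473 and 449 TPM in the single mutants (log2 fold change -1.04, limma, adjusted p = 0.00847). The UDP-glucuronosyltransferase gene *ugt-44* was at 1.07 to 1.95 TPM in the double mutants and at 10.4 to 14.4 TPM in the single mutants. The ion pump gene *catp-3*, the sugar transporter gene *swt-6* and the acyltransferase gene *oac-20* were at most 0.56 TPM in every double mutant library and at least 1.53 TPM in every single mutant library. All of these lay without overlap between the groups.

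The signalling genes themselves were not called. Of 28 tested genes of the p38 cascade and other MAPK pathways, none was called lower or higher, beside 0.638% of all tested genes called. At that share a list of this size can hold no call, so the absence is not a result about these genes. Their median log2 fold change was -0.03 (614 of all tested genes had an unadjusted limma p below 0.05). *sek-1*, the kinase directly above PMK-1, was at 33.5, 33.9, 33.1 and 35.8 TPM in the double mutants and 34.3, 33, 31 and 29.9 TPM in the single mutants. *nsy-1* was at 13.5 to 17.6 TPM in the double mutants and 12.1 to 18.2 TPM in the single mutants. *atf-7* was at 103 to 124 TPM in the double mutants and 108 to 131 TPM in the single mutants. These 3 genes overlapped between the groups, as did *pmk-2*, another p38 gene, at 4 to 5.66 TPM in the double mutants and 4.18 to 4.75 TPM in the single mutants. The exception was *vhp-1*, the phosphatase that inactivates PMK-1, at 9.21, 8.13, 7.24 and 8.75 TPM in the double mutants, against 15.8, 11.9, 14.2 and 10.1 TPM in the single mutants. It was lower in every double mutant library (log2 fold change -0.57, limma, adjusted p = 0.368), and 3 of the 20 alternative fits called it, among them the one with the replicate block (adjusted p = 0.0554, range over the alternatives 0.0554 to 1).

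Of 34 tested genes on a list of immune transcription factors and other regulators, none was called, which is near the share of 0.638% over all tested genes. The list includes the mutated *daf-16*, factors from the study's promoter analysis such as *unc-62*, and the regulators *bar-1* and *fshr-1*. A negative fold change was seen in 24 of the 34, as in 5810 of the 12843 tested genes, with a median of -0.07. *zip-2*, a bZIP factor of the infection response, was at 51.8, 32.1, 35.4 and 32.2 TPM in the double mutants, against 131, 65, 102 and 63.5 TPM in the single mutants. All 4 double mutant libraries were lower (log2 fold change -1.19, limma, adjusted p = 0.163), and the replicate block called it. The intestinal GATA factor gene *elt-2* was at 11 to 15.9 TPM in the double mutants and 12.4 to 19.2 TPM in the single mutants, and *pqm-1* was at 16.8 to 31.5 TPM in the double mutants and 18.5 to 46.4 TPM in the single mutants.

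**Figure D3:**
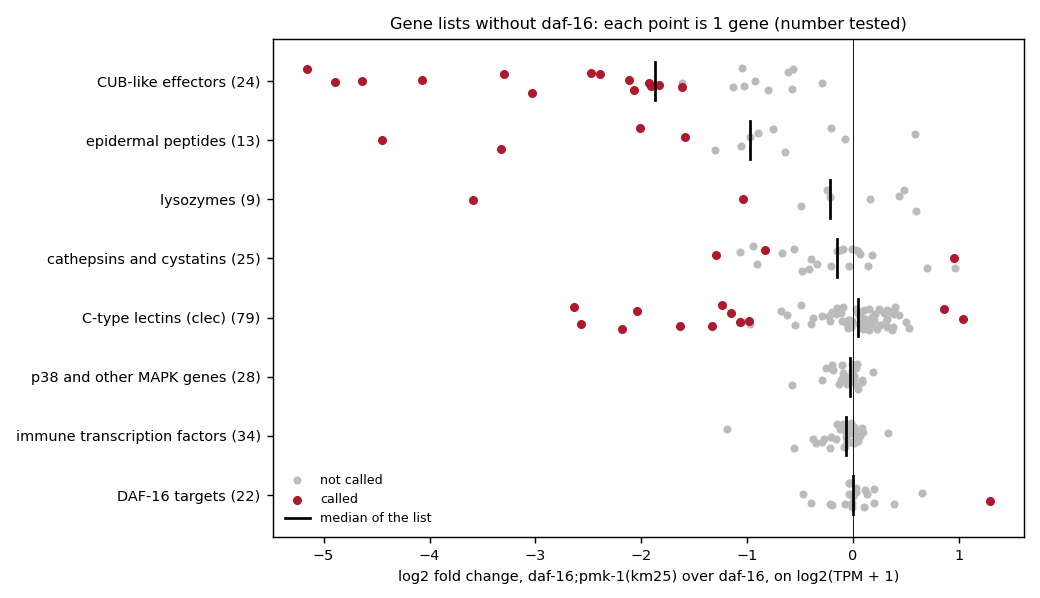
Log2 fold change of double over single mutants (horizontal axis) for the tested genes of 8 lists, with the number tested in brackets. The lists were chosen with earlier results of these data known. Red points were called, grey points were not, and black bars are list medians. The CUB-like list lies wholly below 0 with a median of -1.87, and the epidermal peptides have a median of -0.97. The p38 and MAPK genes, the regulators labelled immune transcription factors and the DAF-16 targets lie around 0.

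The study chose its own gene lists on *pmk-1(km25)* and wild-type samples of this series, not on the 8 libraries compared here. The lists were taken up with earlier results of these data known, so their direction here is not independent evidence. Over all tested genes, 0.576% were called lower and 0.0623% higher, shares that stand beside each list here. Of the 33 innate immunity genes, 26 were lower, none was higher and the median log2 fold change was -1.91. Of the 38 tested genes of the list for PVD, a pair of touch-sensing neurons, 20 were lower and 1 higher, with a median of -1.25. These falls include *C17H12.8*, *F08G5.6*, *dod-24* and *T24B8.5*, effectors of the infection response that the innate immunity list also holds. The lysosomal list was mixed, with 5 of 24 lower, among them *lys-1*, *lys-2* and *pcp-2*, 1 higher (*cpr-1*) and a median of 0.03. The replicate block called 9 of these 24 lower and 2 higher, beside 2.86% and 0.771% of all tested genes. The extracellular list had 4 of 12 lower (*nlp-29*, *nlp-30*, *nlp-31* and the metalloprotease gene *nas-11*) and 2 higher (*col-135* and *cpr-1*).

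The 8 rises were smaller than the falls. *fat-7*, a stearoyl-CoA desaturase gene that makes oleic acid, had the clearest one. It was at 308 and 336 TPM in *daf-16(mgDf50);pmk-1(km25)* and at 527 and 572 TPM in *daf-16(m26);pmk-1(km25)*, against 118 and 146 TPM in *daf-16(mgDf50)* and 223 and 221 TPM in *daf-16(m26)* (log2 fold change 1.30, SE 0.09, limma, adjusted p = 0.000597). The *m26* strains ran above the *mgDf50* strains on both sides, and without the allele block the gene was not called. *clec-52* had the same arrangement, at 28.3, 25.3, 37.6 and 37.5 TPM in the double mutants and 11.3, 11.6, 21.9 and 17.5 TPM in the single mutants (log2 fold change 1.03, SE 0.11, limma, adjusted p = 0.00827). The cuticle collagen gene *col-135* was at 41 to 60.4 TPM in the double mutants and 11.3 to 30.6 TPM in the single mutants (log2 fold change 1.23, limma, adjusted p = 0.0827), and *cpr-1* was at 210 to 325 TPM in the double mutants and 111 to 187 TPM in the single mutants (log2 fold change 0.95, limma, adjusted p = 0.0947). Of the 8 genes, *fat-7* and *clec-52* were called whichever library was left out. *col-135*, *cpr-1*, *T03D3.5*, *clec-172* and *spp-23* were called in 2 or 3 of those 8 fits and *ZC317.7* in 6. For each of these 6 genes, omitting number 2 of the *daf-16(m26);pmk-1(km25)* libraries was among the steps that ended the call.

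*fat-7* was also the one called gene among 22 tested DAF-16 targets, and none was called lower, beside 0.576% of all tested genes. The superoxide dismutase gene *sod-3* was at 2.57 to 3.35 TPM in the double mutants and 2.23 to 2.98 TPM in the single mutants. *dod-6* was at 29.7, 54.2, 28.1 and 55.2 TPM in the double mutants and 19.3, 29.1, 25.4 and 27.7 TPM in the single mutants, and was called only by the fits with a replicate block (log2 fold change 0.65, limma, adjusted p = 0.97 without a block). The remaining targets, such as *hsp-12.6* and *lea-1*, overlapped.

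**Figure D4:**
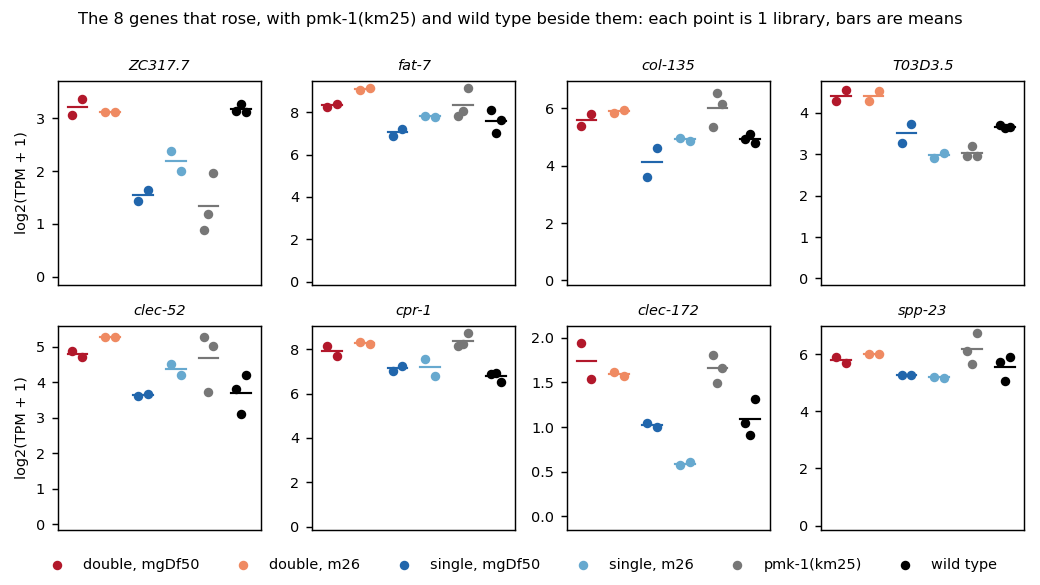
Expression as log2(TPM + 1) of the 8 genes that rose, with double mutants (red, orange) left of single mutants (blue), and *pmk-1(km25)* (grey) left of wild type (black). Points are libraries and bars are means. In all 8 panels the double mutants lie above the single mutants, while with *daf-16* intact *ZC317.7* and *T03D3.5* lie lower in *pmk-1(km25)* than in wild type.

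The effect was also taken in each *daf-16* allele by itself. Within *mgDf50* alone, 2 libraries against 2, 21 genes were called (0.164%), 18 lower and 3 higher. Within *m26* alone 15 were called (0.117%), 13 lower and 2 higher, and 11 genes were called in both, among them *T24B8.5*, *lys-2*, *F35E12.5*, *F08G5.6*, *C17H12.8*, *nlp-31* and *fat-7*. All 82 genes had the same sign in both alleles, whose libraries together chose them. The replicate block called 772 genes within *mgDf50* (410 higher, 362 lower) and 332 within *m26* (85 higher, 247 lower). Among the largest falls *F08G5.6* changed by -5.41 in *mgDf50* and -3.85 in *m26*, and its level was higher in *daf-16(mgDf50)* than in *daf-16(m26)*.

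No gene passed the test of a difference between the alleles (0 of 12843 by limma, 0%), while 99 genes had an unadjusted p below 0.05, and none of the 82 called genes had an unadjusted p below 0.05 for it. The replicate block called 106 genes for this difference, 68 higher and 38 lower in *mgDf50* relative to *m26*. Of the 5 genes with the smallest p for it, 4 are given here. *dyf-3*, a gene of sensory cilia, was at 16.8 and 16.9 TPM in *daf-16(mgDf50);pmk-1(km25)* and at 2.07 and 1.86 TPM in *daf-16(m26);pmk-1(km25)*, against 2.96 and 3.61 TPM in *daf-16(mgDf50)* and 4.64 and 3.82 TPM in *daf-16(m26)*. Its fold changes differed by 2.88 on the log2 scale, with an adjusted p of 0.15 (limma). *F56A4.3* was at 12.2, 6.75, 11 and 8.13 TPM in the 4 double mutant libraries, against 14.8 and 11.5 TPM in *daf-16(mgDf50)*, and was listed at 0 in both *daf-16(m26)* libraries. It was at 5.5 to 6.82 TPM in *pmk-1(km25)* and listed at 0 in all 3 wild-type libraries, so the 5 libraries without it were those of wild type and *daf-16(m26)*. *clec-223* showed the reverse arrangement, at 0.761 to 1.40 TPM in the double mutants, 0.496 and 1.08 TPM in *daf-16(mgDf50)* and 8.97 and 9.19 TPM in *daf-16(m26)*, with 0.979 to 1.66 TPM in *pmk-1(km25)* and 9.33 to 17.1 TPM in wild type. In *cls-3*, number 2 of the *daf-16(m26);pmk-1(km25)* libraries was high (20.6 TPM), as were both *daf-16(mgDf50)* libraries (20 and 28.8 TPM), and the other 5 of the 8 libraries were at 3.39 to 7.33 TPM.

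**Figure D5:**
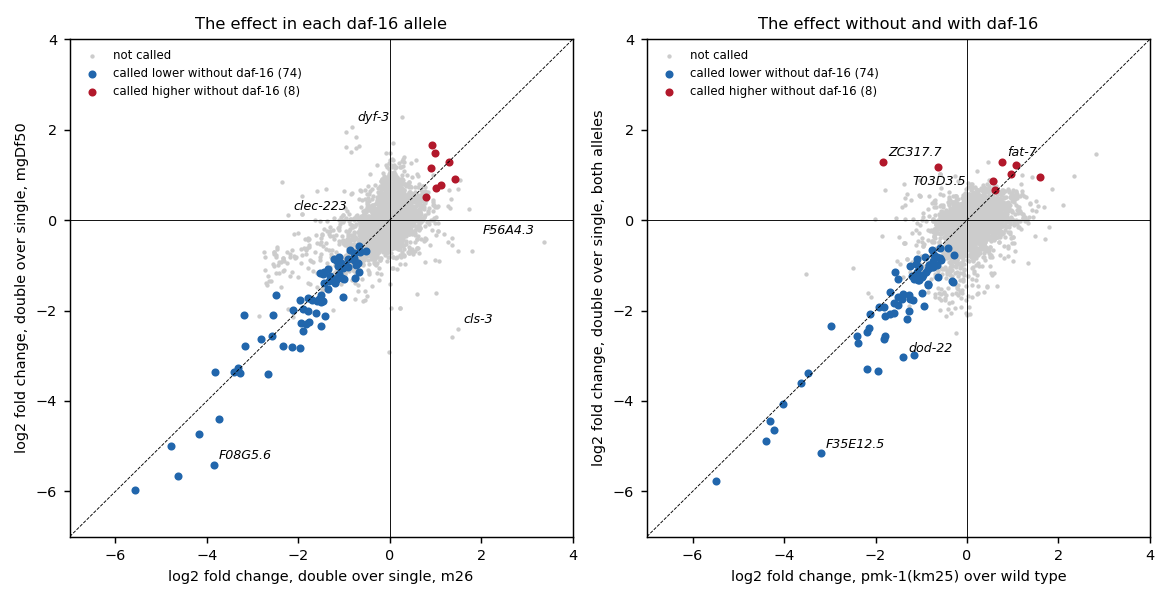
Left, log2 fold change of double over single mutants in *mgDf50* (vertical) against that in *m26* (horizontal) for all 12843 tested genes. Right, the fold change in both alleles (vertical) against that of *pmk-1(km25)* over wild type (horizontal). Blue and red mark the 74 lower and 8 higher genes and the dashed lines mark equal changes. All 82 called genes have the same sign in both alleles on the left. On the right, 66 of them changed more without *daf-16*, the effect that chose them, and *ZC317.7* and *T03D3.5* stand in the upper left quadrant.

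With *daf-16* intact, *pmk-1(km25)* against wild type called 53 genes (0.413%), 46 lower and 7 higher, and 126 with the replicate block. This comparison shares no library with the one in *daf-16* mutants. The 2 sets had 32 genes in common, 31 in the same direction, which is 39.0% of the genes called without *daf-16* and 60.4% of those called with it. Of the 82 genes, 80 had the same sign with *daf-16* intact, all 74 falls and 6 of the 8 rises. The change was larger without *daf-16* for 66 of the 82, which their choice by that effect favours. Across the 12843 tested genes the fold changes correlated with r = 0.408 and across the 82 called genes with r = 0.889. The 82 genes were chosen by 1 of the 2 correlated effects, which can by itself raise r, so the 2 values are not comparable. Both are descriptions over genes, which are not independent replicates.

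The 50 genes called only without *daf-16* did not pass the test with it. Among them, *nlp-29* had a log2 fold change of -3.33 without and -1.95 with *daf-16* (limma, adjusted p = 0.0125 and 0.56), *dod-22* of -3.03 and -1.39, and *F59A7.2* of -2.97 and -1.15. Of the genes called in both, *T24B8.5* changed by -3.38 without and -3.48 with *daf-16*, and *lys-2* by -3.59 and -3.63. For CUB-like genes the median log2 fold change was -1.87 without and -1.50 with *daf-16*. With it, 9 of the 24 were called lower, beside 0.413% of all tested genes called. For the epidermal peptides it was -0.97 and -0.77, with 4 and 3 called lower. The difference of the effects was tested for each gene. *F35E12.5*, *dod-22* and *F59A7.2* had an unadjusted p below 0.05 among 7 of the 82 genes that did, but not after adjustment (limma, adjusted p = 0.894).

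The difference between the effects without and with *daf-16* passed the test for 2 genes (0.0156%), *ZC317.7* and *T03D3.5*, and for 4 with the replicate block, which added *F42A9.6* and *F25E5.1*. *ZC317.7* was at 7.33, 9.31, 7.68 and 7.7 TPM in the double mutants, against 1.71 and 2.13 TPM in *daf-16(mgDf50)* and 4.22 and 3 TPM in *daf-16(m26)*, a rise (log2 fold change 1.30, SE 0.19, limma, adjusted p = 0.0323). With *daf-16* intact it was at 0.849, 1.28 and 2.90 TPM in *pmk-1(km25)*, against 7.82, 8.63 and 7.73 TPM in wild type, a fall (log2 fold change -1.83, limma, adjusted p = 0.0093). Each single mutant thus had a lower level than wild type and than the double mutants. *T03D3.5* was at 18.4, 22.3, 18.4 and 22.2 TPM in the double mutants, against 8.64, 12.3, 6.56 and 7.18 TPM in the single mutants (log2 fold change 1.17, SE 0.17, limma, adjusted p = 0.0272). With *daf-16* intact it was at 6.73, 8.19 and 6.71 TPM in *pmk-1(km25)*, against 12.1, 11.5 and 11.6 TPM in wild type, which did not pass the test by itself (log2 fold change -0.63, limma, adjusted p = 0.28). Omitting wild-type library 1 or 2 ended the call of both genes (limma, adjusted p = 0.101 and 0.11 for each). *T03D3.5* also lost it without number 3 of wild type or of *pmk-1(km25)*, number 1 of *daf-16(m26)* or number 2 of *daf-16(mgDf50);pmk-1(km25)*, with adjusted p of at most 0.134.

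The 3 genes next in rank for this difference (limma, adjusted p = 0.404 each) were ones in which wild type stood apart. *H19N07.3* was at 22.2 to 29.9 TPM in the double mutants and 26.7 to 32.2 TPM in the single mutants, with 22.7 to 27 TPM in *pmk-1(km25)* and 9.11 to 13.1 TPM in wild type. *F25E5.1* was at 10.2 to 15 TPM in the double mutants and 9.70 to 13.4 TPM in the single mutants, with 16.5 to 21.2 TPM in *pmk-1(km25)* and 40.4 to 73.4 TPM in wild type. *fbxa-192* was at 1.30 to 1.59 TPM in the double mutants, 1.60 and 2.74 TPM in *daf-16(mgDf50)*, 8.33 and 9.72 TPM in *daf-16(m26)*, 0.29 to 2.64 TPM in *pmk-1(km25)* and 21.7 to 26.7 TPM in wild type. None of the 3 was called in the *daf-16* mutants.

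Other parts of the transcriptome moved with the groups and with single libraries. Cuticle collagens, which epidermal cells make in bursts around the moults, had a median level over 95 tested *col* genes of 17.3, 7.42, 12.8 and 8.13 TPM in the double mutants, against 28.5 and 6.64 TPM in *daf-16(mgDf50)* and 29.2 and 18.1 TPM in *daf-16(m26)*. These medians were therefore highest in 3 of the 4 single mutant libraries and lowest in *daf-16(mgDf50)* replicate 2. The cuticle collagen gene *rol-6* followed a like order, at 0.594 to 1.44 TPM in the double mutants, 4.5 and 0.462 TPM in *daf-16(mgDf50)* and 6.85 and 4.24 TPM in *daf-16(m26)*. The far more abundant *col-19* did not, at 1991 to 2553 TPM in the double mutants and 1996 to 2444 TPM in the single mutants. The sum over 154 *col* genes also overlapped, at 33970 to 46390 TPM in the double mutants and 31230 to 45940 TPM in the single mutants. Of the 95 *col* genes none was called lower and 1 was called higher, beside 0.576% and 0.0623% of all tested genes. The replicate block called 8 of them lower and 2 higher, beside 2.86% and 0.771% of all tested genes. The median log2 fold change of the 95 genes was -0.41, and -0.87 without *daf-16(mgDf50)* replicate 2. The result for collagens thus depended on that library. The median difference of the 74 falls was -1.42 in the pair of replicate 2 libraries of *mgDf50*, with collagen medians of 7.42 TPM in the double and 6.64 TPM in the single mutant, and -2.03, -1.56 and -1.36 in the other 3 pairs. All 4 pairs were in the fit that chose these genes, so this is a description only.

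No tissue marker list held a called gene, beside 0.638% of all tested genes, and lists this short can hold none at that share. With the replicate block 2.86% of all tested genes were called lower and 0.771% higher. The 6 intestinal markers summed to 2882, 2287, 2719 and 2114 TPM in the double mutants and 4061, 2594, 3576 and 2733 TPM in the single mutants. The groups overlapped, but each double mutant library was below the single mutant of the same allele and number, all 6 markers had a negative log2 fold change, and the replicate block called 3 of them lower. Most of the sum was *asp-1*. The 4 pharynx markers summed to 35.6, 43.2, 37.1 and 46.2 TPM in the double mutants, against 25.7, 28.7, 25.9 and 22.2 TPM in the single mutants, and each of the 4 was higher in every double mutant library, with 2 called by the replicate block. Sperm protein genes of the *msp* family summed to 3783 to 6298 TPM in the double mutants and 2754 to 5195 TPM in the single mutants. The 6 yolk protein genes, expressed from adulthood on, summed to 12070 to 16040 TPM in the double mutants and 12640 to 13800 TPM in the single mutants, and no marker was listed at 0 in all 8 libraries. The part of these tissue and stage markers in the falls and rises was not tested.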

How the data were processed

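Whole-animal mRNA was sequenced in 21 libraries of 9 genotypes, of which 8 form this comparison and 6 more the one with *daf-16* intact. Groups and replicate numbers came from the labels. Per the labels and the study's methods, the authors made stranded poly-A libraries, sequenced single-end reads of 76 bp, aligned them with STAR (2.5.3a in the submitters' processing notes), removed duplicates with Picard 2.10, counted reads per gene with featureCounts, normalized with edgeR and named the build ce10. The authors deposited TPM values for 22840 genes; how TPM was computed from the counts is not given in the sources used here. Each library summed to the same total TPM, so the depth is unknown, no counting interval or detection limit can be given, and no count model was fitted. Their tables of comparisons with wild type hold fold changes and p-values and were not used.

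The values were taken as log2(TPM + 1). Genes averaging at least 1 TPM across the 21 libraries (12843) entered limma 3.58.1 under R 4.3.3, run with a mean trend and robust estimation, and p-values were adjusted by Benjamini-Hochberg over all of them. The comparison without *daf-16* had the 8 libraries and the *daf-16* allele as a block, the fits within alleles had 4 group means, and the fits with *daf-16* intact had 6 group means and 14 libraries. Figures used Python 3.11.15 and matplotlib 3.10.9. The fitting was tested on simulated data. No 2 libraries were identical (highest correlation 0.996).

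Replicate numbers were checked for pairing. Deviations from the group means correlated by 0.759 between double and single mutants of *mgDf50* and by 0.344 for *m26*. With 2 libraries a group both numbers of an allele give the same value. Between *pmk-1(km25)* and wild type they were 0.196, 0.856 and 0.424. Across the alleles, number 1 libraries correlated by 0.542 between the double mutants and by 0.505 between the single mutants. The sharing was therefore not particular to the pairs within an allele. Only the values show this pairing, since the labels name no batch. The title of the second *daf-16(mgDf50);pmk-1(km25)* library carries a replicate number of 1, and its bracketed sample name was followed instead.

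Named genes were *pmk-1* and *daf-16*, up to 15 largest called falls and rises separated within each allele (without 21ur and mir genes), members of the lists where a count is described, the 5 smallest p-values of each interaction and the 3 most changed genes of families with 3 calls. Others are said to be chosen after their values were seen. The members and lists were chosen with earlier results of these data known. Gene order and newer names came from RefSeq for WBcel235, in which 12611 tested genes were found. As the build differs, no coordinates are given.

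Alternatives were pseudocounts of 0.1 and 0.5 TPM, no filter, means of at least 5 TPM or at least 1 TPM over the 8 libraries, rescaling to a median log2 ratio of 0, a stricter adjusted p of 0.05, limma with neither trend nor robust estimation, a fit of all 9 genotypes, no allele block, 4 group means, replicate blocks and leaving out each library.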

Additional observations from a re-analysis of the deposited data

Results flagged for a closer look

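The effect of *pmk-1(km25)* differed between the backgrounds without and with *daf-16* by the test of the difference itself for *ZC317.7* (difference of the log2 fold changes 3.13, SE 0.33, limma, adjusted p = 0.0185) and for *T03D3.5* (1.80, SE 0.21, limma, adjusted p = 0.0209). For both genes all 4 double mutant libraries lay above all 4 *daf-16* single mutant libraries, and all 3 *pmk-1(km25)* libraries lay below all 3 wild-type libraries. Leaving out 1 of the 14 libraries at a time kept the difference between 2.90 and 3.44 for *ZC317.7*, with 12 of 14 fits called, and between 1.69 and 1.92 for *T03D3.5*, with 8 of 14 called.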

How the results depend on the processing

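No called gene reversed under any alternative run, and all 82 calls without *daf-16* were kept with either pseudocount, with the filter over the 8 libraries and with both replicate blocks. The count of 82 was 27 without a filter, 466 with the replicate block of 4 pairs and 264 with the replicate number as a term, and 47 to 259 when 1 library was left out. Within *mgDf50* the count of 21 was 33 at a pseudocount of 0.1, 52 in the fit of all 9 genotypes, 772 with the replicate block and 3 to 65 with a library left out. Within *m26* the count of 15 was 31 without a filter, 46 in the fit of all 9 genotypes, 332 with the replicate block and 0 to 60 with a library left out. For the difference between alleles the count of 0 was 2 at either pseudocount, 40 without a filter, 1 without trend and robust estimation, 3 in the fit of all 9 genotypes, 106 with the replicate block and 0 to 2 with a library left out. For the difference without and with *daf-16* the count of 2 was 16 without a filter, 6 in the fit of all 9 genotypes, 4 with the replicate block and 0 to 3 with a library left out. The count of 53 with *daf-16* intact, whose alternatives were chosen after seeing the data, was 81 in the fit of all 9 genotypes, 126 with the replicate block and 31 to 99 with a library left out. With a library left out, the study's lists had 22 to 27 innate immunity, 16 to 23 PVD, 2 to 8 lysosomal and 3 to 6 extracellular genes called, and the replicate block called 11 lysosomal genes in place of 6. The cause of these shifts was not tested. Where a genotype was left with 1 library, that library was assumed to vary like the others. The unknown depth and 2 libraries a genotype limit all of these counts, and no statement about weakly expressed genes rests on more than the listed values.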
